A study of Mus musculus with 112 samples.

Results

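The lipases and lipid droplet coat genes described here were 10 genes, Pnpla2, Pnpla3, Lipe, Mgll, Abhd5, G0s2, Plin1, Plin2, Plin4 and Cidec, of 19938 genes measured in mouse white adipose tissue (WAT). The genes were chosen by symbol. Each had exactly 1 probe set that carried its symbol and no other, and all 10 were tested, with no filter on low values. Male mice of 7 strains were compared on a control diet and under calorie restriction (CR), with 8 mice in each of the 14 groups and 1 array per mouse, 112 arrays in all. The strains were 129S1/SvImJ, BALB/cJ (Balbc/J in the labels), C57BL/6J (C57BL6/J in the labels), DBA/2J, CBA/J, C3H/HeJ and B6C3F1/J, the hybrid of C57BL/6J and C3H/HeJ. All mice were housed singly and received 84 kcal of an AIN93M-based diet per week beforehand. They were assigned to the control diet or to CR at 8 weeks of age and were killed at 22 weeks after an overnight fast, so each level below is that of a fasted mouse after 14 weeks on its diet. Per the study's methods, the CR mice of B6C3F1/J, DBA/2J, C3H/HeJ and CBA/J kept 1 allotment throughout, and those of C57BL/6J and 129S1/SvImJ had their food cut further during the study. Both BALB/cJ groups were fed more, and the BALB/cJ CR mice received the allotment that the controls of the 4 strains with 1 CR allotment received.

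White adipocytes keep triglyceride in a lipid droplet whose surface carries coat proteins. Breakdown proceeds in steps: adipose triglyceride lipase (Pnpla2) takes the first fatty acid from triglyceride, hormone-sensitive lipase (Lipe) acts on the diglyceride, and monoglyceride lipase (Mgll) acts on the monoglyceride. Abhd5 (CGI-58) activates adipose triglyceride lipase and G0s2 inhibits it. Perilipin 1 (Plin1) holds Abhd5 at rest and releases it when protein kinase A phosphorylates the coat. Plin2 and Plin4 are further droplet coats, and Cidec (FSP27) promotes the fusion of small droplets into large ones. Pnpla3 (adiponutrin), a patatin-family relative of Pnpla2, is known for its induction by feeding and insulin. RNA levels do not report the phosphorylation or the protein amounts on which much of this control rests.

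The promoters below are shown for the gene with the largest rise (Pnpla3) and for the 2 coat genes that were called lower in the most strains (Plin4 and Cidec). They are the 250 bases before each transcription start used, from RefSeq (build GRCm38.p6). They are read 5′ to 3′ along the gene's strand, with capitals for the letters of a matched motif. Some windows are partly inside the gene: the RefSeq span of Pnpla3 begins at 84167776 and that of Plin4 reaches 56109948. The Cidec start 1 window lies within its gene's span, which reaches 113435760. All 10 genes had an entry, with 13 starts among them because Lipe, Mgll and Cidec had 2 each.
Pnpla3 (chr15:84167566-84167815, plus strand): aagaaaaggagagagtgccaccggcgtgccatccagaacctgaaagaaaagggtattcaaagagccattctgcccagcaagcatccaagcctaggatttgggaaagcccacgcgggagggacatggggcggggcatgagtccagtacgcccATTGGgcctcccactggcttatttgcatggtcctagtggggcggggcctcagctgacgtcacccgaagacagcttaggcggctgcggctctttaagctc
Plin4 (chr17:56109783-56110032, minus strand): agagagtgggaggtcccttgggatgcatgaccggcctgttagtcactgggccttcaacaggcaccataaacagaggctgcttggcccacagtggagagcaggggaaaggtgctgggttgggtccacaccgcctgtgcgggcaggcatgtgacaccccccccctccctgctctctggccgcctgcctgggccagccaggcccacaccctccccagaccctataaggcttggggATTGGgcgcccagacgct
Cidec, start 1 (chr6:113434765-113435014, minus strand): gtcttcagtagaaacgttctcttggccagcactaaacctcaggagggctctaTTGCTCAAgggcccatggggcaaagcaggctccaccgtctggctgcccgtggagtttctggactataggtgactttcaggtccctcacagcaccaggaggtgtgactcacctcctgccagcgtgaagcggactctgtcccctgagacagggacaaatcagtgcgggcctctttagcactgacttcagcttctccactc
Cidec, start 2, farther upstream (chr6:113435761-113436010, minus strand): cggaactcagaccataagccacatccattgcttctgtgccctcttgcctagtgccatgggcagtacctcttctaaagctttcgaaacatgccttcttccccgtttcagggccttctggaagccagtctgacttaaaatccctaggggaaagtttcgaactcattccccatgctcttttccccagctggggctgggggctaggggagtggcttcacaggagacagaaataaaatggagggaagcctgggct
The capitals in Pnpla3 and Plin4 mark CCAAT read on the opposite strand, and those in Cidec mark TTGCNNAA, a C/EBP pattern. In all, 7 letter patterns were searched on both strands in 32851 promoters of this length. CCAAT was in 33.8% of all promoters and at Pnpla3, Plin2 and Plin4, and TTGCNNAA was in 9.56% and at Plin1 and Cidec. The E-box CACGTG was in 6.02% and at Lipe and Mgll, and the FOXO pattern GTAAACA was in 3.17% and at the same pair of genes. At Mgll both were before start 1, and at Lipe the FOXO match was before start 1 and the E-box before start 2. AGGTCA, a nuclear receptor pattern, was in 14% and at Abhd5 and Plin2. The PPAR pattern, a direct repeat of AGGTCA that overlaps with the single one, was in 0.0335% of all promoters, the SREBP pattern TCACNCCAC was in 1.05%, and neither matched any of the 13. These matches are letters in a window, not sites shown to be bound.

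All levels are log2 RMA signals, so a difference of 1 is a 2-fold change, and levels are compared for 1 gene between mice, never between genes. Markers of white adipocytes (7 measured of 8 listed) had a mean of 11.3 to 12.5 over the 112 arrays. Markers of epididymis, a duct that adjoins this fat depot, were over 1 log2 unit above their median on 8 arrays, 6 CR and 2 control: C57BL/6J CR mice 2 and 3, CBA/J CR mice 5 and 6, DBA/2J control mice 3 and 4, and DBA/2J CR mice 1 and 6. The mean of 14 epididymis markers was 11.19 in C57BL/6J CR mouse 2 and 11.11 in CBA/J CR mouse 5, against a median of 4.91 over the controls. White adipocyte markers were lowest in those same mice (11.30 and 11.73), and each of the 10 genes was at its group's lowest in both. Calls of the 10 genes that change without the 8 arrays are given both ways. The arrays kept are not all free of these markers. C57BL/6J CR mice 4 to 8 were at 5.52 to 5.84 and CR mouse 1 at 4.68, against 4.77 to 5.12 in the C57BL/6J controls. CBA/J CR mice 7 and 8 (5.95 and 5.82) and DBA/2J control mice 2 and 5 (5.79 and 5.88) were also kept. A set of 12 arrays, 9 of them DBA/2J, correlated poorly with their group. All 18 macrophage markers fell on CR over the strains, from a mean of 9.40 ± 0.57 in control to 8.59 ± 0.31 in CR mice (SD, n = 56 each), and the ranges were 8.25 to 10.64 and 7.90 to 9.62. Of 8 brown and beige adipocyte markers 6 rose on CR, with a mean over the list of 7.13 in control (range 6.38 to 9.42) and 7.79 in CR mice (range 6.29 to 8.59). Of 7 measured fibroblast and progenitor markers 6 fell, from a mean of 10.18 (range 9.76 to 10.64) to 9.94 (range 9.48 to 10.31). The part of these cell types in the results below was not tested. In whole tissue, fewer cells of a type and less RNA per cell cannot be told apart.

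Averaged over the 7 strains, Pnpla3 and, by a smaller amount, Abhd5 rose on CR, and Plin4, G0s2, Cidec and Mgll fell. Pnpla2, Lipe, Plin1 and Plin2 did not pass the test. Thus 2 of 10 genes were called higher and 4 lower at an adjusted p below 0.05 (limma, Benjamini-Hochberg over all genes). Over all 19938 genes, 21.9% were called higher and 22.0% lower; 2 of 10 is near that background for the genes called higher. The median change of the 10 genes was -0.059, against 0.0076 over all genes.

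**Figure D1:**
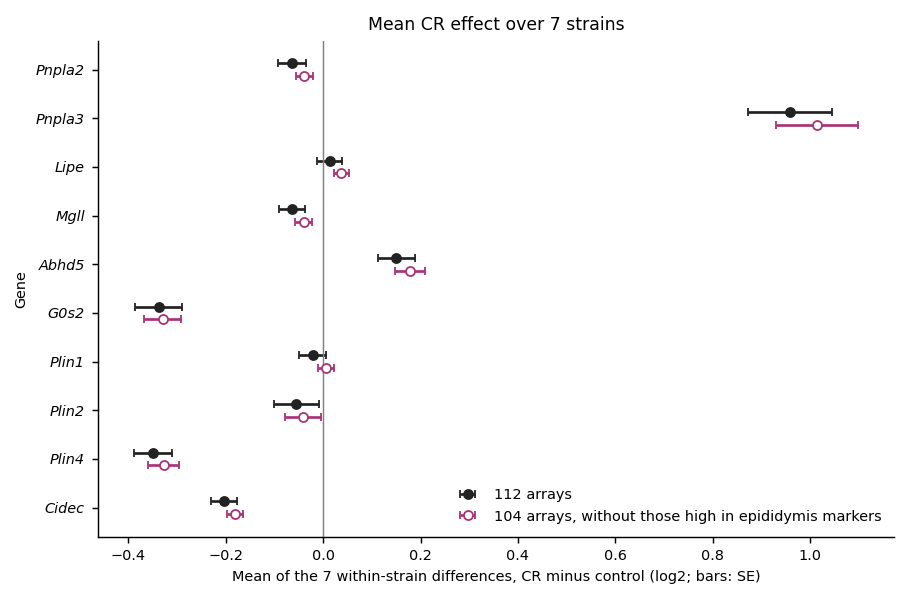
Mean CR effect over the 7 strains for each of the 10 genes (log2, CR minus control), with bars of 1 SE, for all 112 arrays (filled) and without the 8 arrays high on epididymis markers (open). Pnpla3 stands alone at +0.96 and Plin4 and G0s2 lie lowest, at -0.35 and -0.34.

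Among the lipases, Pnpla3 had the largest change of the set. 129S1/SvImJ control mice had Pnpla3 levels from 8.51 to 9.79 (median 9.28), and CR mice from 9.59 to 11.11 (median 10.83). The Pnpla3 level of C57BL/6J mice had a median of 9.78 on the control diet (range 9.12 to 10.27) and 11.11 on CR (range 9.65 to 11.16). For Pnpla3, B6C3F1/J controls lay between 9.93 and 10.50 around a median of 10.13, and CR mice between 11.11 and 11.85 around 11.62. In B6C3F1/J every CR mouse lay above every control. In 129S1/SvImJ, C57BL/6J, C3H/HeJ and CBA/J 7 of 8 CR mice did so. C3H/HeJ control mice had Pnpla3 levels from 9.79 to 11.13 (median 10.39), and CR mice from 10.76 to 11.71 (median 11.54). The Pnpla3 level of CBA/J mice had a median of 10.98 on the control diet (range 10.18 to 11.26) and 11.63 on CR (range 10.77 to 11.87). CBA/J controls had the highest control mean of the 7 strains. For Pnpla3, BALB/cJ controls lay between 9.83 and 11.88 around a median of 10.25, and CR mice between 9.98 and 12.001 around 11.36. DBA/2J control mice had Pnpla3 levels from 9.17 to 10.65 (median 9.86), and CR mice from 9.56 to 10.95 (median 10.26). In these last strains the groups overlapped widely, with 1 BALB/cJ and 2 DBA/2J CR mice above all of their controls. The BALB/cJ count rests on control mouse 3 at 11.88, which stood apart, and the next highest control was mouse 2 at 10.65.

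The mean Pnpla3 change over strains was +0.96 (SE 0.0863, adjusted p = 9.21e-18), a 1.94-fold rise, and it was +1.02 (SE 0.0839, adjusted p = 2.71e-19) without the 8 epididymis-high arrays. Within strains it was called higher in 5. The changes were +1.40 (SE 0.221, adjusted p = 0.000104) in 129S1/SvImJ, +1.37 (SE 0.0996, adjusted p = 1.8e-08) in B6C3F1/J and +1.14 (SE 0.205, adjusted p = 0.0011) in C57BL/6J. They were +1.00 (SE 0.167, adjusted p = 0.000649) in C3H/HeJ and +0.60 (SE 0.163, adjusted p = 0.0134) in CBA/J. The values in BALB/cJ, +0.77 (SE 0.296, adjusted p = 0.632), and DBA/2J, +0.45 (SE 0.25, adjusted p = 0.418), did not pass. Whether the effect differed between strains was not called either (interaction adjusted p = 0.0802).

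Pnpla2, the lipase of the first step, was not called over the strains (-0.064, SE 0.0286, adjusted p = 0.0601), but it was near the threshold. It was called lower in 6 of 24 alternatives, among them quantile normalization (-0.092, adjusted p = 0.0065), and without replicate 2 (-0.054, adjusted p = 0.0177), CBA/J (-0.082, adjusted p = 0.0281) or B6C3F1/J (-0.089, adjusted p = 0.0211). The Pnpla2 level of 129S1/SvImJ mice had a median of 12.88 on the control diet (range 12.84 to 13.01) and 12.66 on CR (range 12.55 to 12.84). Here every CR mouse lay below every control, and the change of -0.23 (SE 0.0492, adjusted p = 0.00168) was called. For Pnpla2, C57BL/6J controls lay between 12.69 and 12.93 around a median of 12.78, and CR mice between 11.46 and 12.74 around 12.71. The low end is CR mouse 2, and the C57BL/6J change of -0.25 (SE 0.146, adjusted p = 0.263) became -0.074 (adjusted p = 0.28) without the epididymis-high arrays. In 1 limma model of all 112 arrays, the -0.25 was called (adjusted p = 0.00726). In the other 5 strains the changes ran from -0.047 in BALB/cJ to +0.082 in B6C3F1/J and none was called. Without those 8 arrays the interaction of Pnpla2 was called (adjusted p = 0.000566, against 0.0563 with all arrays).

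Lipe, the lipase of the second step, was not called in any strain by limma on that strain's 16 arrays, although the methods' t-test called it in 129S1/SvImJ (+0.051, adjusted p = 0.0371), and its changes ran from -0.11 in C57BL/6J to +0.085 in B6C3F1/J. 129S1/SvImJ control mice had Lipe levels from 12.82 to 12.93 (median 12.86), and CR mice from 12.86 to 12.96 (median 12.92). The mean over strains was +0.013 (adjusted p = 0.717), with a 95% confidence interval from -0.037 to 0.063, and 0 strains had an unadjusted p below 0.05. Without the epididymis-high arrays it was +0.037 (SE 0.0153) and passed, at an adjusted p of 0.0395. Mgll, which acts on monoglycerides, fell by 0.064 (SE 0.0265, adjusted p = 0.0394) over strains and was called in no strain by limma on that strain's arrays, with 1 strain, CBA/J, at an unadjusted p below 0.05. The methods' t-test called Mgll in 129S1/SvImJ (-0.084, adjusted p = 0.0321), and the model of all arrays called it in C57BL/6J (-0.23, adjusted p = 0.00828). C57BL/6J CR mouse 2 was at 10.80 for Mgll. Without the epididymis-high arrays the C57BL/6J change was -0.097 (adjusted p = 0.345 by limma on that strain's arrays). The Mgll level of CBA/J mice had a median of 12.45 on the control diet (range 12.21 to 12.49) and 12.32 on CR (range 11.87 to 12.37). The call of Mgll over strains was lost without the 8 arrays (-0.040, adjusted p = 0.0502).

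Abhd5, the activator of Pnpla2, had a mean change of +0.15 (SE 0.0381, adjusted p = 0.000527), a 1.11-fold rise, and of +0.18 (adjusted p = 3.73e-07) without the 8 arrays. For Abhd5, B6C3F1/J controls lay between 9.66 and 10.09 around a median of 9.89, and CR mice between 9.94 and 10.51 around 10.35. In B6C3F1/J 7 of 8 CR mice exceeded all controls and the change was +0.45 (SE 0.0762, adjusted p = 0.000143). C57BL/6J control mice had Abhd5 levels from 9.97 to 10.41 (median 10.11), and CR mice from 9.35 to 10.72 (median 10.47). The Abhd5 level of CBA/J mice had a median of 10.01 on the control diet (range 9.79 to 10.16) and 10.26 on CR (range 9.49 to 10.41). In C57BL/6J 5 and in CBA/J 7 of 8 CR mice exceeded all controls, and 1 CR mouse, the one highest on epididymis markers, lay below them all. Without the epididymis-high arrays the changes were +0.37 in C57BL/6J (adjusted p = 0.00284) and +0.29 in CBA/J (adjusted p = 0.00248), and both passed with 8 control and 6 CR mice. Abhd5 was also called in C3H/HeJ without control mouse 2 (adjusted p = 0.0406). For Abhd5, BALB/cJ controls lay between 10.63 and 11.04 around a median of 10.81, and CR mice between 10.57 and 10.98 around 10.75. BALB/cJ was the only strain with a change below 0, -0.083 (SE 0.076, adjusted p = 0.786).

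G0s2, the inhibitor of Pnpla2, fell by 0.34 over the strains (SE 0.0487, adjusted p = 2.88e-09), to 0.791 of its control level. 129S1/SvImJ control mice had G0s2 levels from 9.45 to 10.02 (median 9.62), and CR mice from 8.90 to 9.62 (median 9.002). The G0s2 level of C3H/HeJ mice had a median of 8.70 on the control diet (range 8.50 to 8.90) and 8.04 on CR (range 7.89 to 8.58). For G0s2, C57BL/6J controls lay between 9.22 and 9.72 around a median of 9.32, and CR mice between 7.58 and 9.16 around 9.004. In 129S1/SvImJ and C3H/HeJ 7 of 8 CR mice lay below all controls, and in C57BL/6J all 8 did. The changes were -0.60 (SE 0.097, adjusted p = 0.000132) in 129S1/SvImJ, -0.57 (SE 0.0868, adjusted p = 0.000323) in C3H/HeJ and -0.53 (SE 0.179, adjusted p = 0.0497) in C57BL/6J. The C57BL/6J call was at the threshold: it was lost on leaving out any 1 of 14 of the 16 arrays (adjusted p up to 0.0953), was kept without CR mouse 2 or 8, and stood at -0.34 (adjusted p = 0.00444) without the epididymis-high arrays. BALB/cJ control mice had G0s2 levels from 8.70 to 9.27 (median 8.88), and CR mice from 8.68 to 9.23 (median 8.96). The G0s2 level of B6C3F1/J mice had a median of 8.93 on the control diet (range 8.65 to 9.02) and 8.84 on CR (range 8.55 to 9.09). These groups overlapped, with changes of +0.044 (SE 0.0943, adjusted p = 0.908) in BALB/cJ and -0.083 (SE 0.0671, adjusted p = 0.365) in B6C3F1/J. CBA/J gave -0.16 (SE 0.125, adjusted p = 0.385). DBA/2J gave -0.46 (SE 0.16, adjusted p = 0.165), which the model of all arrays called (adjusted p = 0.0192), and -0.66 (adjusted p = 0.0465) with 6 mice per group once the epididymis-high arrays were left out.

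The CR effect on G0s2 differed between strains (interaction adjusted p = 0.00932). Plin2 was the other gene of the set with a called interaction (adjusted p = 0.0184), so 2 of 10 were called against 19.0% of all genes, a share near the background. The G0s2 call was lost without replicate 1 of every group (adjusted p = 0.068), and that of Plin2 without replicate 2, 6 or 7 (adjusted p = 0.0941, 0.0547 and 0.0765). Another 6 had an unadjusted interaction p below 0.05, and the share of all genes at that level is not given here. Without the 8 epididymis-high arrays 4 were called, Pnpla2, Abhd5, G0s2 and Plin2, where 25.5% of all genes were.

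**Figure D2:**
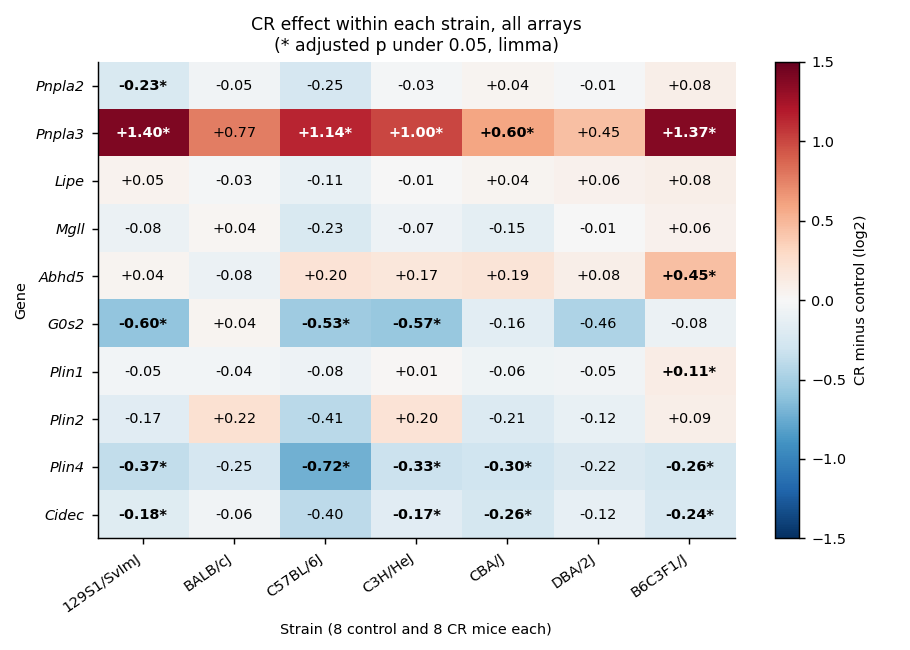
CR effect (log2, CR minus control) of each gene within each of the 7 strains, 8 mice per group, as a heat map whose cells give the value, red for higher and blue for lower, with * for an adjusted p below 0.05. Pnpla3 lies above 0 in all 7 strains, Plin4 and Cidec below 0 in all 7, and G0s2 between -0.60 in 129S1/SvImJ and +0.044 in BALB/cJ.

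Among the coat genes, Plin4 had a change below 0 in all 7 strains and was called lower in 5. 129S1/SvImJ control mice had Plin4 levels from 12.30 to 12.45 (median 12.39), and CR mice from 11.83 to 12.21 (median 11.96). The Plin4 level of C57BL/6J mice had a median of 12.38 on the control diet (range 12.05 to 12.54) and 11.80 on CR (range 10.51 to 11.85). For Plin4, B6C3F1/J controls lay between 11.90 and 12.22 around a median of 12.15, and CR mice between 11.70 and 11.95 around 11.86. The groups did not overlap in 129S1/SvImJ and C57BL/6J, and in B6C3F1/J and C3H/HeJ 7 of 8 CR mice lay below all controls. C3H/HeJ control mice had Plin4 levels from 11.997 to 12.35 (median 12.26), and CR mice from 11.72 to 12.20 (median 11.89). The Plin4 level of CBA/J mice had a median of 11.98 on the control diet (range 11.81 to 12.12) and 11.73 on CR (range 11.21 to 11.86). In CBA/J 6 of 8 CR mice lay below all controls. For Plin4, BALB/cJ controls lay between 11.55 and 12.38 around a median of 12.16, and CR mice between 11.24 and 12.28 around 11.91. DBA/2J control mice had Plin4 levels from 11.72 to 12.28 (median 12.08), and CR mice from 11.59 to 11.97 (median 11.85). BALB/cJ and DBA/2J overlapped, with 1 and 2 CR mice below all controls. The BALB/cJ count rests on control mouse 3 at 11.55, which stood apart, and the next lowest control was mouse 4 at 12.05.

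Plin4 fell by 0.35 over the strains (SE 0.0388, adjusted p = 1.74e-13), to 0.784 of its control level, and by 0.33 without the 8 arrays. Within strains the called changes were -0.72 (SE 0.158, adjusted p = 0.00434) in C57BL/6J, -0.37 (SE 0.0585, adjusted p = 9.41e-05) in 129S1/SvImJ and -0.33 (SE 0.0663, adjusted p = 0.00265) in C3H/HeJ. CBA/J gave -0.30 (SE 0.0831, adjusted p = 0.0141), a call lost without replicate 4 or 6 (adjusted p = 0.0523 and 0.0511), and B6C3F1/J -0.26 (SE 0.055, adjusted p = 0.00117), a call lost in the model of all arrays (adjusted p = 0.0514). The others, -0.25 (SE 0.137, adjusted p = 0.668) in BALB/cJ and -0.22 (SE 0.0793, adjusted p = 0.188) in DBA/2J, did not pass. The C57BL/6J value was -0.54 (adjusted p = 2.7e-05) without its 2 epididymis-high arrays.

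Cidec, the droplet fusion gene, had a narrow spread among controls (pooled SD 0.0723) and fell by 0.20 over the strains (SE 0.0269, adjusted p = 1.46e-10). The Cidec level of B6C3F1/J mice had a median of 13.21 on the control diet (range 13.12 to 13.27) and 12.96 on CR (range 12.88 to 13.07). For Cidec, CBA/J controls lay between 13.05 and 13.25 around a median of 13.20, and CR mice between 12.69 and 13.06 around 12.94. C57BL/6J control mice had Cidec levels from 13.26 to 13.36 (median 13.30), and CR mice from 11.84 to 13.20 (median 13.04). In B6C3F1/J and C57BL/6J the groups did not overlap, and in CBA/J 7 of 8 CR mice lay below all controls. The called changes were -0.26 (SE 0.0535, adjusted p = 0.00172) in CBA/J, -0.24 (SE 0.0383, adjusted p = 8.19e-05) in B6C3F1/J, -0.18 (SE 0.0451, adjusted p = 0.00454) in 129S1/SvImJ and -0.17 (SE 0.0406, adjusted p = 0.00771) in C3H/HeJ. The C3H/HeJ call was lost in the model of all arrays (adjusted p = 0.102). In C57BL/6J the groups were separate, yet the value of -0.40 (SE 0.144, adjusted p = 0.0696) missed the threshold, with CR mouse 2 at 11.84. Without the epididymis-high arrays it was -0.24 (adjusted p = 0.00166), and the -0.40 was called in the model of all arrays (adjusted p = 7.27e-06) and by the methods' t-test (adjusted p = 0.029). BALB/cJ gave -0.058 (SE 0.0676, adjusted p = 0.827) and DBA/2J -0.12 (SE 0.0574, adjusted p = 0.33).

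Plin1, the perilipin that guards the adipocyte droplet, was not called over the strains: its mean change was -0.021 (adjusted p = 0.582), with a 95% confidence interval from -0.076 to 0.033. For Plin1, B6C3F1/J controls lay between 12.48 and 12.75 around a median of 12.69, and CR mice between 12.75 and 12.81 around 12.76. B6C3F1/J was the 1 strain with a call, +0.11 (SE 0.0426, adjusted p = 0.0451), with 5 of 8 CR mice above all controls, and the call was lost on leaving out any 1 of 11 of the 16 arrays (adjusted p up to 0.0844). The Plin1 value was +0.038 (adjusted p = 0.588) under quantile normalization, and the call was also lost with the replicate number as a block (adjusted p = 0.095) and in the model of all arrays (adjusted p = 0.266). Plin2 had changes of both signs. C57BL/6J control mice had Plin2 levels from 11.35 to 11.84 (median 11.69), and CR mice from 10.16 to 11.77 (median 11.33). The Plin2 level of C3H/HeJ mice had a median of 11.91 on the control diet (range 11.60 to 12.28) and 12.14 on CR (range 11.87 to 12.30). For Plin2, BALB/cJ controls lay between 11.70 and 12.37 around a median of 11.80, and CR mice between 11.81 and 12.67 around 11.95. The change was -0.41 (SE 0.166, adjusted p = 0.104) in C57BL/6J, +0.20 (SE 0.0847, adjusted p = 0.129) in C3H/HeJ and +0.22 (SE 0.119, adjusted p = 0.666) in BALB/cJ, and limma on each strain's own arrays called none of the 7. The model of all arrays, which also gave the called interaction, called Plin2 in C57BL/6J (adjusted p = 0.00744). The mean over strains was -0.055 (adjusted p = 0.364, 95% confidence interval -0.15 to 0.036). Without the 8 arrays the C57BL/6J value was -0.31 and passed (adjusted p = 0.0106). Plin2 was also called in C3H/HeJ without control mouse 3 (adjusted p = 0.036) and in B6C3F1/J without CR mouse 8 (adjusted p = 0.0335).

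**Figure D3:**
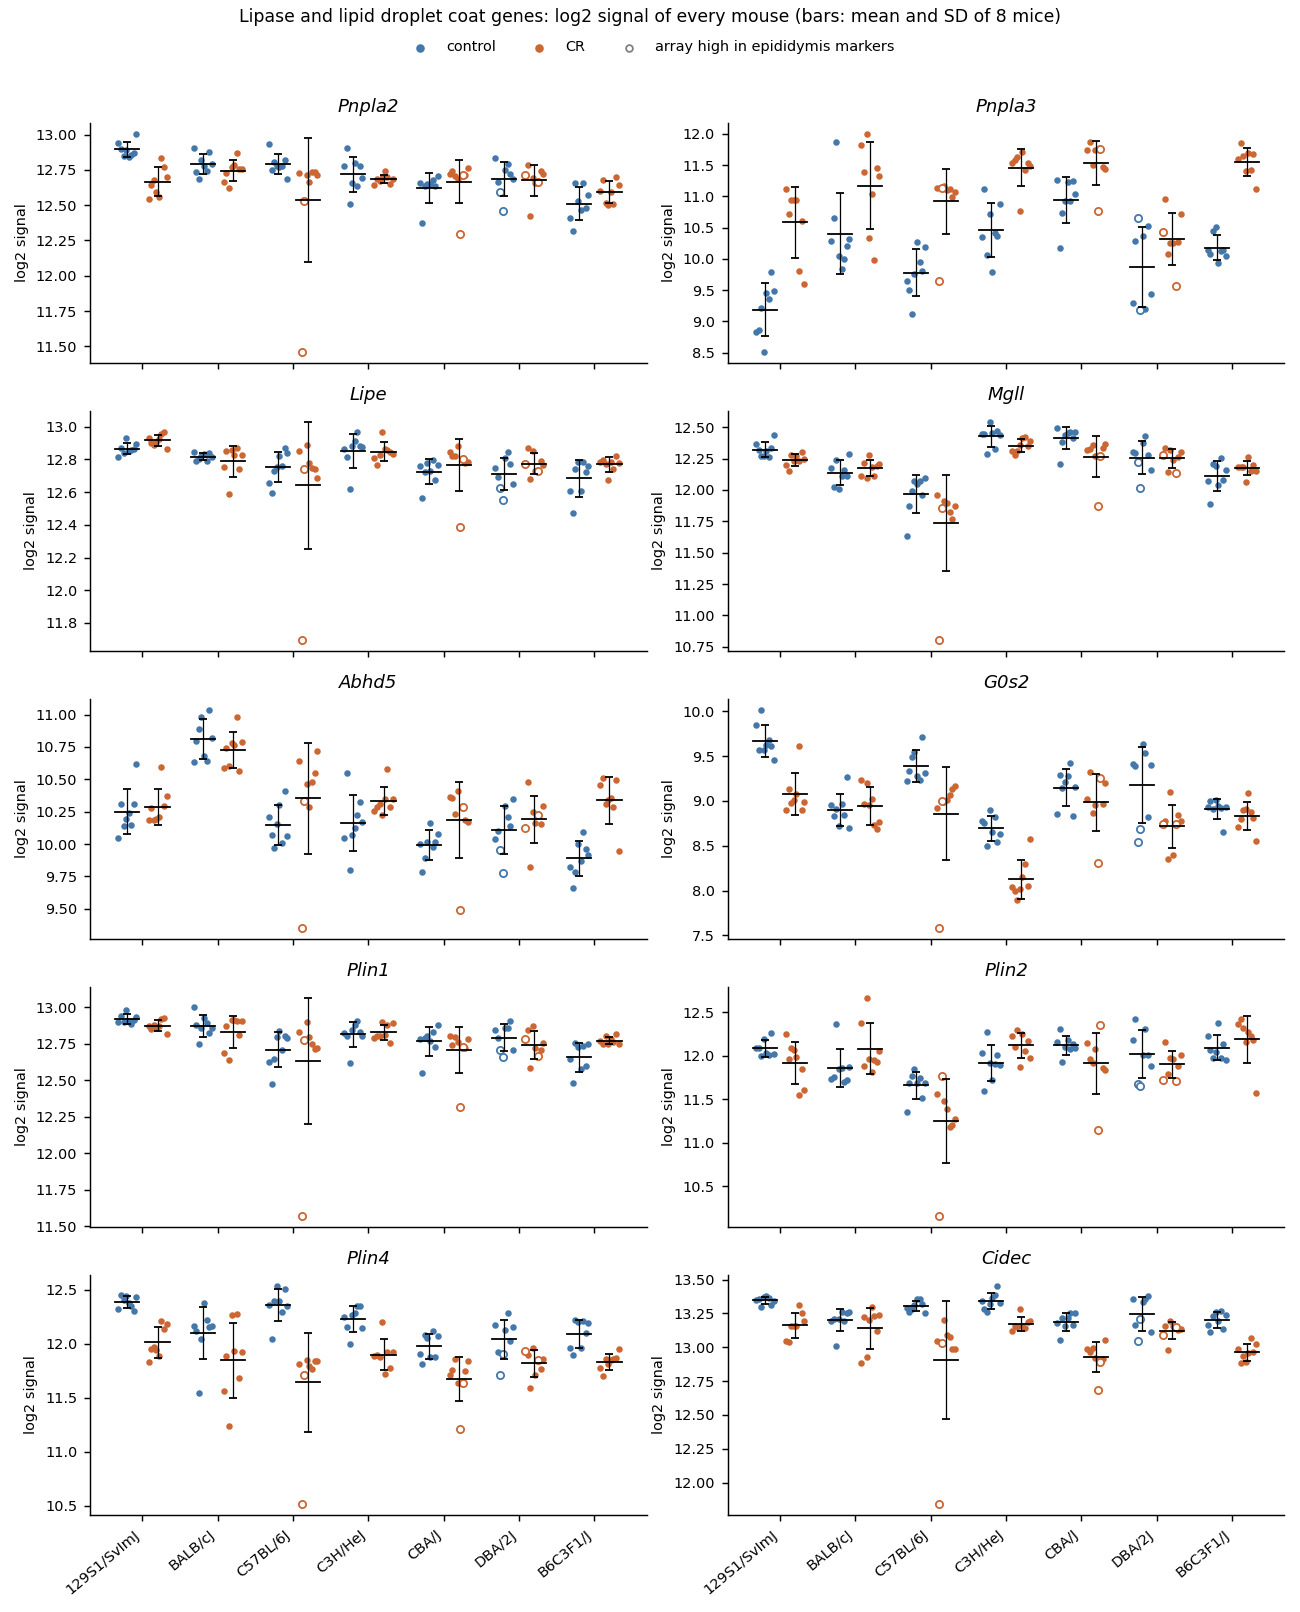
Log2 level of each gene in every mouse, by strain and diet, with 8 mice per group, lines and bars for the mean and SD, and open points for arrays high on epididymis markers. The lone low CR points in C57BL/6J and CBA/J are C57BL/6J CR mouse 2 and CBA/J CR mouse 5.

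Counted by strain, 5 of 10 genes were called in 129S1/SvImJ (1 higher, 4 lower), where 16.8% of all genes were called higher and 15.4% lower. B6C3F1/J had 5 (3 higher, 2 lower) against 17.8% and 16.4%. C3H/HeJ had 4 (1 higher, 3 lower) against 8.75% and 6.88%. C57BL/6J had 3 (1 higher, 2 lower) against 9.39% and 7.32%, and CBA/J had 3 (1 higher, 2 lower) against 8.68% and 12.5%. DBA/2J had none, where 0.492% of all genes were called higher and 0.396% lower. It had 1 in the model of all arrays (994 of all genes) and 0 by the methods' t-test (10 of all genes). There 2 of the 10, G0s2 and Plin4, had an unadjusted limma p below 0.05, as had 3017 of 19938 genes. In BALB/cJ limma called 0% of all genes in each direction. Only Pnpla3 of the 10 had an unadjusted p below 0.05 there, as had 1500 of 19938 genes. The model of all arrays called 7 of the 10 in C57BL/6J (4847 of all 19938 genes) and 5 in 129S1/SvImJ (5534). It called 3 each in C3H/HeJ (2788), CBA/J (4876) and B6C3F1/J (5233). The methods' t-test, taken here at an adjusted p below 0.05, called 7 in 129S1/SvImJ (6067 of all genes) and 5 in B6C3F1/J (6672). It called 4 each in C57BL/6J (3507) and C3H/HeJ (2795) and 3 in CBA/J (4193). The methods' t-test also called 0 in BALB/cJ, and a single model of all arrays called 272 genes there, none of them among the 10. Groups did not overlap for 2 of 10 genes in 129S1/SvImJ (7.73% of all genes), 3 in C57BL/6J (4.49%) and 2 in B6C3F1/J (12.6%). No gene of the set was separate in C3H/HeJ (2.35%), CBA/J (7.09%), DBA/2J (0.206%) or BALB/cJ (0.00502%). Without the epididymis-high arrays the counts were 6 in C57BL/6J, 4 in CBA/J and 1 in DBA/2J, where 22.8%, 26.0% and 1.60% of all genes were called. The drop in macrophage markers was also unequal, from 10.19 to 8.72 in B6C3F1/J and from 9.83 to 8.32 in CBA/J, against 8.73 to 8.66 in BALB/cJ. Its part in these counts was not tested.

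Contrasts between strains tested the CR effects against each other. The effect in BALB/cJ did not differ from the mean of the other strains for any of the 10 genes at the threshold (3.25% of all genes did by limma). Of the 10, 4 had an unadjusted p below 0.05, and the share of all genes at that level is not given here. The nearest was G0s2, whose effect was 0.45 higher in BALB/cJ (adjusted p = 0.0549). Without the 8 epididymis-high arrays 3 of 10 passed against 4.90% of all genes: G0s2 at +0.44 (adjusted p = 0.00379), Abhd5 at -0.30 (adjusted p = 0.0151) and Cidec at +0.14 (adjusted p = 0.0431). The strains with further reduced food, 129S1/SvImJ and C57BL/6J, were set against the 4 strains kept on 1 CR allotment, and 2 of 10 differed, against 6.67% of all genes. The mean CR effect on Pnpla2 was lower in the strains with further reduced food (difference -0.26, adjusted p = 0.00541). It remained so without the 8 arrays (-0.17, adjusted p = 0.00235). The 2 strains were not alike in this: without those arrays the Pnpla2 change was -0.23 in 129S1/SvImJ and -0.074 in C57BL/6J. In the strains kept on 1 CR allotment it was then -0.071 in DBA/2J, -0.034 in C3H/HeJ, +0.082 in B6C3F1/J and +0.10 in CBA/J. Plin4 differed by -0.27 (adjusted p = 0.047) and by -0.18 (adjusted p = 0.121) without the 8 arrays. Its call was lost on leaving out any 1 of 7 of the 8 replicate numbers (adjusted p up to 0.183). Strain and food allotment cannot be told apart in this contrast.

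Control mice of the 7 strains differed in the level of 8 of the 10 genes, where 56.6% of all genes differed; Lipe (adjusted p = 0.0637) and Cidec (adjusted p = 0.135) did not pass. Both passed without the 8 epididymis-high arrays, 2 of which are DBA/2J controls (adjusted p = 6.23e-05 for Lipe and 0.000133 for Cidec), so that 10 of 10 differed, against 56.3% of all genes. Both also passed without the low-correlation arrays (adjusted p = 0.000249 and 3.7e-05). Abhd5 showed the clearest order: BALB/cJ was highest, with a mean of 10.81 ± 0.15, and did not overlap with 129S1/SvImJ, next at 10.25 ± 0.17 (SD, n = 8 each). The other 5 strains, from B6C3F1/J at 9.89 to C3H/HeJ at 10.16, differed from their neighbours by less than the larger SD. Pnpla3 ran from 9.19 in 129S1/SvImJ through C57BL/6J (9.78), DBA/2J (9.87), B6C3F1/J (10.18), BALB/cJ (10.40) and C3H/HeJ (10.46) to 10.94 in CBA/J. Only its lowest and highest steps exceeded the larger SD of the neighbours. G0s2 ran from 8.70 in C3H/HeJ to 9.67 in 129S1/SvImJ with 3 such steps, Mgll from 11.97 in C57BL/6J to 12.43 in C3H/HeJ with 1, and Pnpla2 from 12.51 in B6C3F1/J to 12.89 in 129S1/SvImJ with 1. For Plin1, Plin2, Plin4, Lipe and Cidec no neighbouring strains differed by more than the larger SD. In B6C3F1/J controls, 2 of 10 genes differed from the mean of the parental strains, where 9.42% of all genes did: Pnpla2 by -0.24 (adjusted p = 0.00758) and Abhd5 by -0.27 (adjusted p = 0.0345). Without the 8 epididymis-high arrays, none of which is in the B6C3F1/J, C57BL/6J or C3H/HeJ controls, the differences were the same and 7 of 10 genes were called, against 12.2% of all genes. Those gained were Lipe at -0.12 (adjusted p = 0.00908), Plin1 at -0.10 (adjusted p = 0.0419) and Plin2 at +0.30 (adjusted p = 0.00507). Plin4 at -0.20 (adjusted p = 0.0397) and Cidec at -0.12 (adjusted p = 0.0118) were also gained. The Pnpla2 call was lost without replicate 1 (adjusted p = 0.0674) and the Abhd5 call without replicate 1, 2, 5 or 7 (adjusted p up to 0.126). The control differences of Plin1 and Plin2 were lost without replicate 1 or 7 (adjusted p from 0.0557 to 0.0821), and those of Lipe and Cidec were called without replicate 2 (adjusted p = 0.00389 and 0.00344). Under quantile normalization Plin1 was not called (adjusted p = 0.108) and Cidec was (adjusted p = 0.00274).

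As shares of the total variance over the 112 arrays, diet took 35.6% for Plin4, 34.9% for Pnpla3, 28.9% for Cidec and 16.1% for G0s2. Strain took 57.3% for Mgll, 49.0% for Abhd5 and 41.9% for G0s2. For Lipe and Plin1 diet took 0.217% and 0.450%.

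With each strain centred on the mean of its 16 arrays, Plin4 and Cidec moved together over the 112 arrays (Pearson r = 0.89, and 0.84 over 104 arrays without the epididymis-high ones). Pnpla3 correlated negatively with both, with r = -0.57 with Plin4 and -0.40 with Cidec, and -0.80 and -0.73 without those arrays. These correlations are a description: the arrays share strain means and the diet difference. With each strain and diet group centred, the Pnpla3 and Plin4 correlation was -0.19 over 112 arrays and -0.58 over 104 (Spearman -0.44, and Pearson -0.47 without the 2 mice farthest out in Pnpla3). It was negative in 5 of 7 strains over the 104, from -0.92 in BALB/cJ to 0.15 in C57BL/6J. The Pnpla3 and Cidec correlation, centred in the same way, was +0.088 over 112 arrays and -0.34 over 104 (Spearman -0.26, and Pearson -0.25 without the 2 farthest mice), with 4 of 7 strains negative over the 104. The BALB/cJ mice with the highest Pnpla3 of their groups, control mouse 3 at 11.88 and CR mouse 3 at 12.001, had Plin4 at 11.55 and 11.24, the lowest of their groups. They were also highest of their groups on brown and beige adipocyte markers, at 8.70 against 6.73 to 7.07 in the other controls, and at 8.58 against 6.62 to 8.44 in the other CR mice. CR mouse 6, lowest on those markers, had the highest Plin4 of its group (12.28). The part of these cells was not tested. Lipe and Plin1 moved together with r = 0.92, and 0.77 without the 8 arrays.

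**Figure D4:**
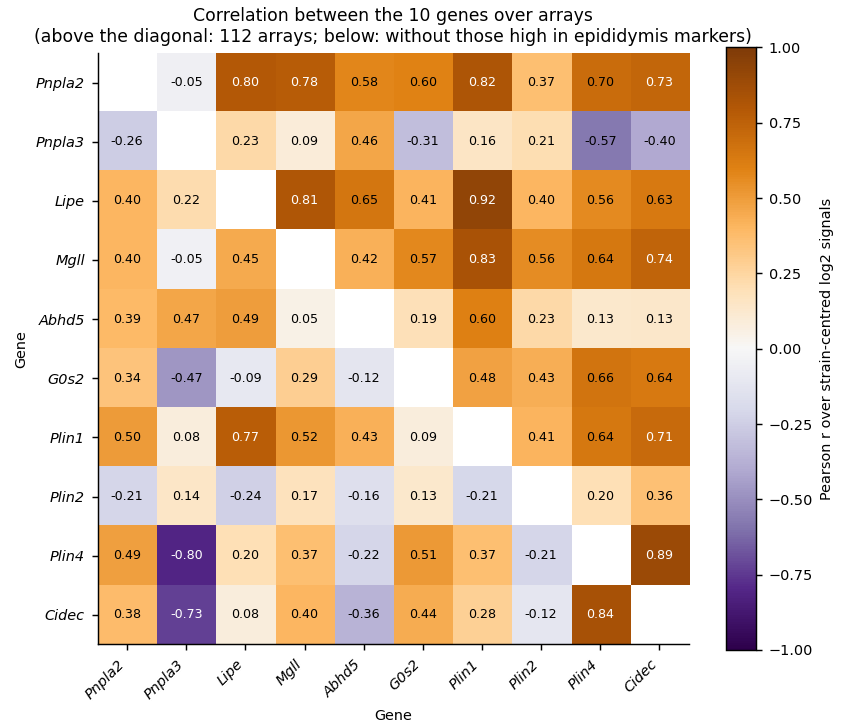
Pearson correlation between each pair of the 10 genes after each strain is centred on its mean, over all 112 arrays (above the diagonal) and over the 104 arrays that are not high on epididymis markers (below). Pnpla3 is negatively correlated with Plin4 (-0.57 and -0.80) and Cidec (-0.40 and -0.73), and Plin4 with Cidec is 0.89 and 0.84.

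By the same measure, over 112 arrays and all genes, those most like Pnpla3 were Acss2 (r = 0.94), 2010003K11Rik (r = 0.94) and Me1 (r = 0.93). Acss2 makes acetyl-CoA from acetate and Me1 makes NADPH from malate. Plin4 was most like Aqp7, a glycerol channel (r = 0.92), Dst (r = 0.91) and Cavin1, a caveola coat (r = 0.91). Cidec was most like Aqp7 (r = 0.91), Cavin1 (r = 0.91) and Trarg1 (r = 0.91), so Aqp7 and Cavin1 stood in the top 3 of both. Lipe and Plin1 were each other's nearest and shared Aoc3 and Ywhab, and for Lipe the correlation with Aoc3 went from 0.89 to 0.60 without the 8 arrays. Pnpla2 was most like Sik2, Art3 and Apol6, Mgll like Ywhab, Ttyh2 and Fads3, Abhd5 like Cluh, Sh3glb2 and Ranbp9, G0s2 like Dram1, Id3 and Sh3tc1, and Plin2 like Bak1, Elovl1 and Pfkp. Without the 8 arrays Mgll went from 0.86 to 0.56 with Ywhab, 0.60 with Ttyh2 and 0.62 with Fads3. Pnpla2 with Apol6 went from 0.87 to 0.71, and Pnpla3 with Acss2 from 0.94 to 0.95. The ranking itself was not redone without them.

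The wider pathway was read from 5 lists, each against the same 21.9% higher and 22.0% lower over all genes. Of 18 other acylglycerol lipases and patatin-family genes 8 were higher, 6 lower and 4 not called (median -0.035). Lipg, endothelial lipase, rose by 0.64 (SE 0.156, adjusted p = 0.000266), with Ddhd2 at +0.42 and Abhd6, a monoglyceride lipase, at +0.29. Lipa, lysosomal acid lipase, fell by 0.77 (SE 0.0548, adjusted p = 1.47e-23), with Ces3a at -0.85 and Ces3b at -0.55. Lipa is abundant in macrophages, whose markers fell as given above, and their part in it was not tested. Of 16 other lipid droplet proteins 5 were higher, 5 lower and 6 not called (median -0.012). Cidea, a relative of Cidec, rose by 1.03 (SE 0.115, adjusted p = 2.45e-13). Cidea is itself on the brown and beige adipocyte list, where Ucp1 (+0.61), Elovl3 (+1.86), Cox8b (+0.71), Cox7a1 (+0.75) and Ppargc1a (+0.38) also rose and Dio2 and Zic1 were not called, and the part of those cells was not tested. Also higher were Ldah at +0.26 and Bscl2 (seipin) at +0.23. Hilpda, another inhibitor of Pnpla2, fell by 0.84 (SE 0.0509, adjusted p = 1.51e-27), with Cavin1 at -0.40 and Hsd17b11 at -0.38.

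Of 22 measured genes of lipolytic receptors and cAMP signalling 4 were higher, 10 lower and 8 not called (median -0.078). Adcy5, an adenylyl cyclase, fell by 1.30 (SE 0.0704, adjusted p = 1.36e-30), with Irs2, an insulin receptor substrate, at -0.55 and Ffar2 at -0.40. Ptger3, a prostaglandin E receptor that lowers cAMP, rose by 0.63, with Prkar2a at +0.20 and Irs1 at +0.17. The beta-adrenergic receptors were not analysed here. Of 12 measured genes that handle released glycerol and fatty acids 4 were higher, 7 lower and 1 not called (median -0.14). Fabp5 rose by 1.04, Gpd1, which makes glycerol 3-phosphate, by 0.70 and Dgat1, which esterifies the last fatty acid, by 0.35. Pck1, of glyceroneogenesis, fell by 0.46, Pdk4 by 0.46 and Cpt1a, of fatty acid oxidation, by 0.43. Of 20 transcription factors of adipocyte lipid storage and release 11 were higher, 4 lower and 5 not called (median +0.091). Mlxipl (ChREBP) rose by 0.84 (SE 0.0573, adjusted p = 1.38e-24), Srebf1 by 0.52 and Klf15 by 0.43. Irf4 fell by 0.35, Cebpd by 0.23 and Tfe3 by 0.21.

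**Figure D5:**
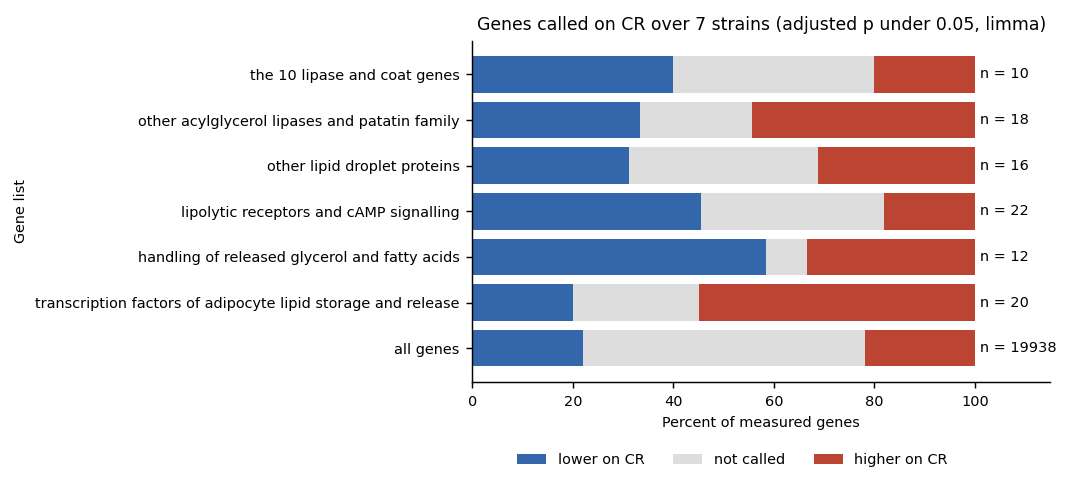
Share of genes (%) called higher, lower and not called on CR over the 7 strains, for the 10 genes, for each of the 5 pathway lists and for all 19938 genes. Among all genes 21.9% were higher and 22.0% lower, and among the transcription factors 11 of 20 were higher.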

How the data were processed

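RNA from the white adipose tissue of 112 mice was measured with the Mouse Gene 1.0 ST microarray of Affymetrix, with each mouse on its own array. The authors summarised the probes per gene by RMA in Affymetrix Expression Console (version not given in the sources used here) and deposited log2 signals, which were used as deposited. All columns were mapped to samples. Of 35556 probe sets, 21789 carried 1 gene symbol, 1621 several and 12146 were not listed with one, and the brightest probe set of each of 19938 genes was kept. The number of arrays limits the precision.

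The mean CR effect, the interaction and the strain contrasts came from 1 limma model of the 14 groups (limma 3.58.1, R 4.3.3). Each strain was also fitted alone on its 16 arrays. P-values were adjusted by Benjamini-Hochberg over all genes. The methods were tested on simulated data with 200 changed genes. Named genes were all 10 members, up to 3 genes in each direction of each pathway list with the largest called change, and the 3 genes most correlated with each member. The members and lists were chosen with earlier results of these data known. Normalization, the dim filter, the replicate number as a block, replicates, strains and single arrays were varied, the last chosen after seeing the data. Promoters are from RefSeq (GRCm38.p6).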

Additional observations from a re-analysis of the deposited data

Results flagged for a closer look

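Of 140 groups of 8 mice, 1 per gene, strain and diet, 42 had a lowest or highest mouse whose gap to its neighbour, over the group's range, exceeded Dixon's critical value, and chance gives about 5% of groups. Of these, 20 were the same pair of mice, both high on epididymis markers. In C57BL/6J CR mouse 2 the genes that stood apart had log2 levels of Pnpla2 at 11.46, Pnpla3 at 9.65, Lipe at 11.69, Mgll at 10.80, Abhd5 at 9.35, G0s2 at 7.58, Plin1 at 11.57, Plin2 at 10.16, Plin4 at 10.51 and Cidec at 11.84. In CBA/J CR mouse 5 the genes that stood apart had log2 levels of Pnpla2 at 12.29, Pnpla3 at 10.77, Lipe at 12.39, Mgll at 11.87, Abhd5 at 9.49, G0s2 at 8.31, Plin1 at 12.32, Plin2 at 11.14, Plin4 at 11.21 and Cidec at 12.69. In CBA/J control mouse 2 the genes that stood apart had log2 levels of Pnpla2 at 12.37, Mgll at 12.21, Plin1 at 12.55 and Cidec at 13.05. In BALB/cJ control mouse 3 the genes that stood apart had log2 levels of Pnpla3 at 11.88, Plin2 at 12.37, Plin4 at 11.55 and Cidec at 13.01. Other mice stood apart in 1 or 2 genes each. Pnpla2 was 12.43 in DBA/2J CR mouse 3. Pnpla3 was 10.76 in C3H/HeJ CR mouse 4. Lipe was 12.59 in BALB/cJ CR mouse 3 and 12.62 in C3H/HeJ control mouse 3. Abhd5 was 10.62 in 129S1/SvImJ control mouse 8, 10.60 in 129S1/SvImJ CR mouse 6, 10.58 in C3H/HeJ CR mouse 6 and 9.94 in B6C3F1/J CR mouse 8. G0s2 was 9.62 in 129S1/SvImJ CR mouse 6, 9.27 in BALB/cJ control mouse 7 and 8.65 in B6C3F1/J control mouse 7. Plin1 was 12.62 in C3H/HeJ control mouse 3. Plin2 was 11.57 in B6C3F1/J CR mouse 8. Plin4 was 12.20 in C3H/HeJ CR mouse 4. 

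The CR effect differed between the 7 strains by limma's interaction test for G0s2 (adjusted p = 0.00932) and Plin2 (adjusted p = 0.0184). G0s2 was lower on CR in 6 of 7 strains, and Plin2 in 4 of 7.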

How the results depend on the processing

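Of 434 counts recomputed under the alternatives, 397 stayed within 1.5 times the reported count, and no count or gene's effect reversed among the called values. Pnpla3, G0s2, Plin4 and Cidec kept their mean call under all 24 alternatives run. Pnpla2, not called over the strains, was called lower in 6 of 24: under quantile normalization (adjusted p = 0.0065) and the dim filter (adjusted p = 0.0411), without the low-correlation arrays (adjusted p = 0.0317), without replicate 2 (adjusted p = 0.0177), and without CBA/J (adjusted p = 0.0281) or B6C3F1/J (adjusted p = 0.0211). Lipe was called higher in 1 of 24, without the epididymis-high arrays. Mgll kept its call in 13 of 24 (adjusted p from 0.0118 to 0.17), and Abhd5 lost it only with B6C3F1/J left out (adjusted p = 0.0506), which left 1 gene called higher. The contrast of further reduced food called 1 gene, not 2, under array median centring, under quantile normalization and without the epididymis-high or the low-correlation arrays. The hybrid contrast called 1 gene under median centring, 7 without the epididymis-high arrays and 4 without the low-correlation arrays. The interaction called 4 under the dim filter, without either set of arrays and with the replicate block. The BALB/cJ contrast called 1 under the dim filter and 3 without either set. Without the epididymis-high arrays, the shares of all genes were 25.5% for the interaction, 12.2% for the hybrid, 8.09% for further reduced food and 4.90% for BALB/cJ. For the other alternatives the shares of all genes in these contrasts are not given here. C57BL/6J gave 6 without the epididymis-high arrays (4555 of all genes called) and 6 without the low-correlation arrays (4849). It gave 7 in 1 model of all arrays (4847) and 6 without CR replicate 2 (4849). DBA/2J gave 1 without the epididymis-high arrays (319 of all genes) and 1 in the single model (994). B6C3F1/J gave 3 in the single model (5233). Leaving out 1 replicate number gave 1 to 3 genes for the interaction, 1 to 2 for further reduced food, 0 to 3 for the hybrid and 0 to 1 for BALB/cJ. Within C57BL/6J it gave 2 to 5, where 2458 to 4529 of all genes were called. The cause of these changes was not tested.

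Over all genes, DBA/2J calls moved from 177 to between 3 and 994, and BALB/cJ calls from 0 to at most 272, among the alternatives with adjusted p-values. C3H/HeJ calls fell from 3116 to as few as 1882 when 1 replicate was left out. Of 56 correlations between control and CR mice of the same replicate number, 18 were over 0.1 (median 0.026, range -0.36 to 0.55). No comparison with differently numbered mice is given, so these values cannot decide whether the number pairs the mice. With the number as a replicate block 6 genes were called over the strains, as without it, and 4 for the interaction.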
